A study of Gallus gallus with 15 samples.

Results

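The growth hormone and insulin-like growth factor (IGF) axis was examined in chicken liver through IGF1, IGF1R, IGF2R, GHR, IGFBP1, IGFBP2, IGFBP4, IGFBP5 and STC2. A gene was taken where an array feature carried its symbol alone, and where several features did, the one with the highest mean over all arrays stood for it. Of the 9 genes, 5 were found in this way (IGF1, IGF1R, IGF2R, IGFBP1 and STC2), among 11528 genes with a single symbol and 18308 features in all. GHR, IGFBP2, IGFBP4 and IGFBP5 matched a feature neither by symbol nor by gene number and are not analysed here. All 5 genes found entered every test, since no filter on low values was applied.

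The livers came from male birds aged 13 weeks, with 3 birds per breed and 1 array per bird, and the labels list no treatment beyond standard management. Of the Korean native breeds, Yeonsan Ogye is abbreviated Og and Hyunin Black Bl, while Hw stands for Hwangbong and Ya for Hoengseong Yakdak. White Leghorn (WL) is the control breed. Chicks of all 5 breeds hatched from eggs of local farms and were raised on the same farm with free access to feed. The labels name no strain or allele within a breed, and they do not say whether feed was withheld before sampling. A single bird is written as its breed's abbreviation and its number, as in Hw 3. Values are log2 expression levels, so a difference of 1 is a doubling, and adjusted p-values are limma's, corrected over all 18308 features, with 0.05 as the threshold.

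Growth hormone from the pituitary binds its receptor on hepatocytes and, through the kinase JAK2 and the transcription factors of the STAT5 group, switches on IGF1. The liver supplies most of the circulating IGF-I, which acts through the tyrosine kinase receptor IGF1R, while IGF2R is a mannose 6-phosphate receptor that, in mammals, also clears IGF-II. In chicken, as in other birds, IGF2R is known to bind IGF-II poorly. IGF binding proteins such as IGFBP1 hold the hormone in the circulation, and STC2 (stanniocalcin 2) is a secreted glycoprotein that, in mammals, blocks the protease PAPPA, which frees IGF from some of these proteins.

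The 15 arrays had medians between 6.12 and 6.20 and correlated with each other at 0.977 to 0.991 across features, with WL 1 the lowest on average at 0.980. The liver identity of the samples was checked with 11 measured hepatocyte markers, whose mean level lay between 13.04 and 13.24 in every bird. The mean level of 6 pancreas markers lay between 4.40 and 4.74 and that of 6 striated muscle markers between 4.59 and 5.07. Of the 64 measured entries of 9 cell type marker lists, 1 passed a test, SPP1 of the bile duct list. Of all features, 1.6% passed the test among 5 breeds, and 0.0492% to 1.46% passed in each of the 11 comparisons. Bulk tissue was measured, so fewer cells of a type and less RNA per cell cannot be told apart.

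The first question was whether any of the genes depended on breed at all. None of the 5 passed the test of a difference among the 5 breeds, where 1.6% of all features did. STC2 came nearest with F = 7.68 (unadjusted p = 0.00174, adjusted p = 0.0724). The other genes had F values of 1.06 for IGF1, 0.80 for IGF1R, 0.64 for IGFBP1 and 0.19 for IGF2R, with adjusted p-values between 0.707 and 0.976.

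**Figure D1:**
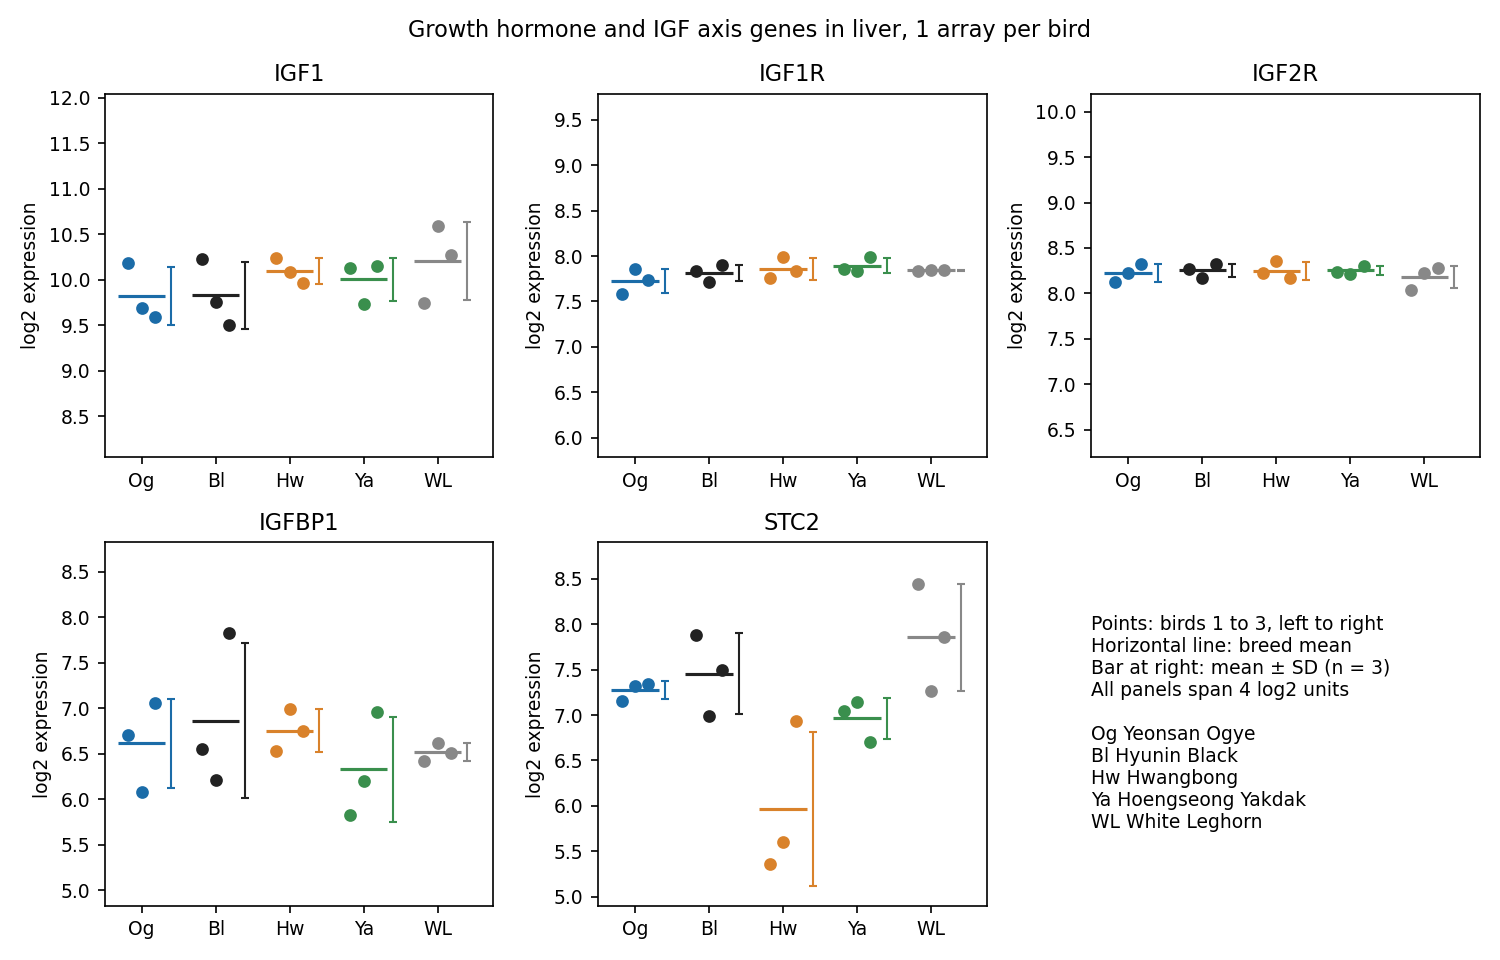
Log2 expression of the 5 measured genes in each liver, with birds 1 to 3 of each breed as points, the breed mean as a line and the SD (n = 3) as a bar, on panels of equal height. IGF1R and IGF2R sit in narrow bands, IGFBP1 spreads widely within breeds, and Hw 1 and Hw 2 have the lowest STC2 levels at 5.36 and 5.60.

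STC2 was the member with a called difference. It stood at 5.36, 5.60 and 6.93 in Hw 1, Hw 2 and Hw 3, against 8.44, 7.27 and 7.86 in WL 1, WL 2 and WL 3. The 2 groups did not overlap, but Hw 3 stood apart from Hw 1 and Hw 2 and lay near the lowest WL bird. Single pancreas markers averaged 2.91 (GCG) to 5.54 (CELA1) over the 15 birds, and striated muscle markers 2.69 (ACTC1) to 6.68 (ACTA1). Hw 1 lay within both spans and Hw 2 within that of muscle. Neither level was shown to be above background, so the size of the difference is uncertain. The mean was 5.96 ± 0.84 in Hwangbong and 7.86 ± 0.59 in White Leghorn (SD, n = 3 each), so STC2 fell by 1.89 ± 0.36 (SE) on the log2 scale in Hwangbong, 3.71-fold lower (adjusted p = 0.0352; 95% interval -2.67 to -1.11). Of all features, 0.579% passed in this comparison (0.339% higher and 0.24% lower in Hwangbong) and 18.7% had groups that did not overlap. Among the 106 features that passed, 62 were higher and 44 lower in Hwangbong, and STC2 had the 14th lowest difference of all 18308 features.

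This call was sensitive to single birds. With Hw 1 or Hw 2 left out the adjusted p was 0.0939 or 0.142, and with WL 1 or WL 3 left out it was 0.12 or 0.0904. Leaving out Bl 3, a bird of neither breed, gave 0.0502 through the shared estimate of the spread, and the 6 arrays of the compared breeds alone gave 0.162. Without Hw 3, the Hwangbong bird nearest to the others, the difference was -2.37 (adjusted p = 0.00549). The direction was the same in all of these fits.

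**Figure D2:**
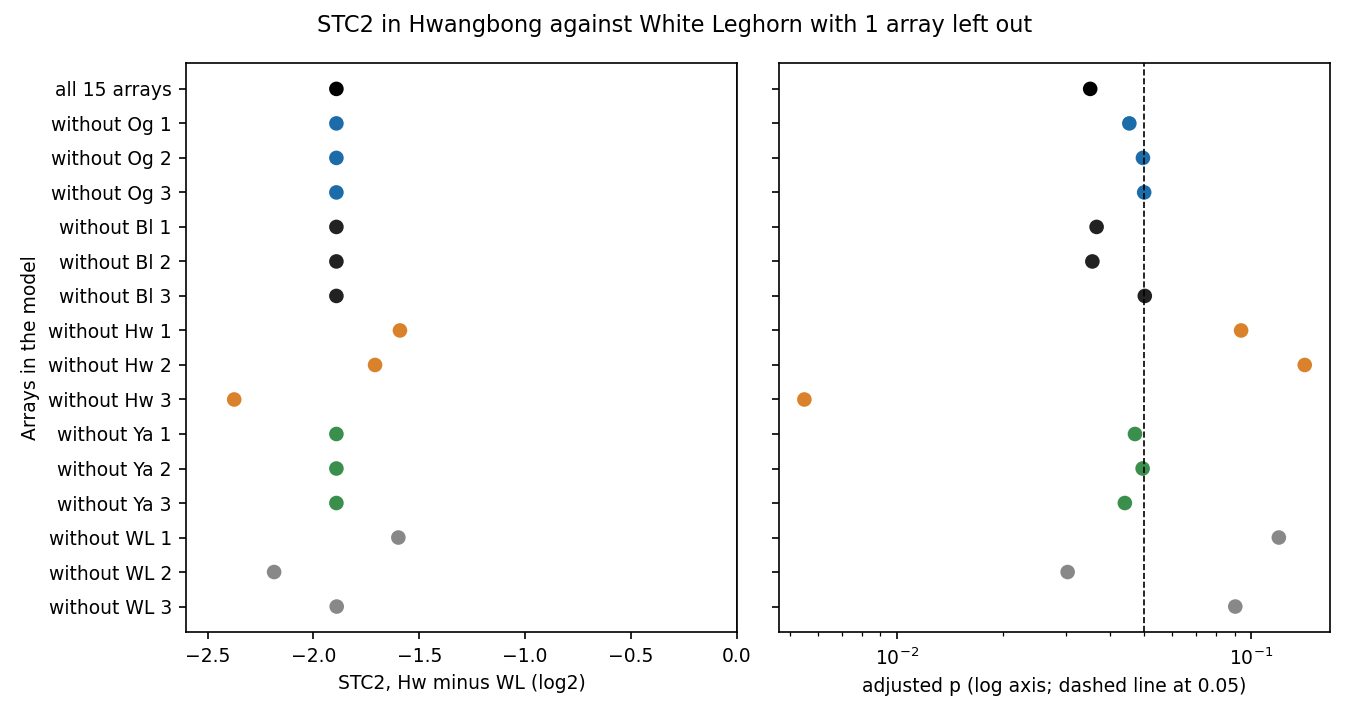
STC2 in Hwangbong minus White Leghorn, with all 15 arrays and with each array left out in turn, as the log2 difference (left) and the adjusted p on a log axis (right). The difference stays between -2.37 and -1.59, while the adjusted p exceeds 0.05 without Hw 1, Hw 2, WL 1, WL 3 or Bl 3.

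SPP1, a bile duct marker that encodes osteopontin, was also lowest in Hwangbong. It stood at 6.77 ± 0.33 in Hwangbong and 7.60 ± 0.10 in White Leghorn (SD, n = 3 each), a difference of -0.83 ± 0.19 (adjusted p = 0.0681). SPP1 passed in Hwangbong against Hyunin Black (adjusted p = 0.0453) and in Hoengseong Yakdak against Hwangbong (adjusted p = 0.0149). Of all features, 0.371% and 1.46% passed in these 2 comparisons. Of the 6 measured bile duct markers, 4 were higher and 2 lower by mean in Hwangbong than in Hyunin Black. All 6 were higher by mean in Hoengseong Yakdak than in Hwangbong. The mean of the 6 measured bile duct markers was between 5.62 and 5.94 in the Hw birds and between 5.92 and 6.02 in the WL birds, and 4 of the 6 were lower by mean in Hwangbong. The bile duct means of Hwangbong and White Leghorn overlapped, whereas those of the hepatocyte, macrophage, red cell and lymphocyte lists did not. Among single features, 18.7% had groups that did not overlap in this comparison. That share holds for single features, and none was computed for means of several markers. The hepatocyte mean was 13.04 to 13.12 in the Hw birds and 13.14 to 13.18 in the WL birds, with 9 of 11 markers lower in Hwangbong. The macrophage mean was 10.41 to 10.50 in the Hw birds and 10.18 to 10.30 in the WL birds, with 5 of 7 markers higher. The red cell mean was 7.45 to 7.56 in the Hw birds and 7.10 to 7.20 in the WL birds, with 4 of 4 markers higher. The red cell means of the other native birds also all lay above the WL birds. They were 7.27 to 8.09 in the Og, 7.63 to 8.15 in the Bl and 7.50 to 7.65 in the Ya birds. The lymphocyte mean was 6.51 to 6.80 in the Hw birds and 6.39 to 6.50 in the WL birds, with 7 of 9 markers higher. Unadjusted p was under 0.05 for 3 of 11 hepatocyte, 3 of 7 macrophage, 3 of 7 endothelium and 2 of 6 bile duct markers. It was so for 2 of 9 lymphocyte, 1 of 4 red cell and 1 of 8 stellate and fibroblast markers. For pancreas and striated muscle it was 0 of 6 each. The share of all features under that cut-off is not given here, so these counts have no reference value. None of these markers passed after adjustment in this comparison, where 0.579% of all features did. The part of these differences in the STC2 result was not tested.

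The mean STC2 levels of the other native breeds lay between those of Hwangbong and White Leghorn, with single birds overlapping. The values were 7.16, 7.32 and 7.34 in the Og birds, 7.88, 6.99 and 7.49 in the Bl birds, and 7.04, 7.14 and 6.71 in the Ya birds. By mean level the breeds ran from Hwangbong (5.96) through Hoengseong Yakdak (6.96), Yeonsan Ogye (7.27) and Hyunin Black (7.46) to White Leghorn (7.86). No neighbours in that order passed a test, the widest step being Hoengseong Yakdak minus Hwangbong at 1.00 ± 0.36 (adjusted p = 0.231).

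Against White Leghorn, STC2 differed by -0.89 ± 0.36 in Hoengseong Yakdak (unadjusted p = 0.0278, adjusted p = 0.314). The 3 Ya birds all lay below the 3 WL birds, and 17.7% of features had groups that did not overlap in this comparison. The difference was -0.59 ± 0.36 in Yeonsan Ogye (adjusted p = 0.695) and -0.40 ± 0.36 in Hyunin Black (adjusted p = 0.72), and both breeds overlapped White Leghorn. Without WL 1 these values were -0.60 in Hoengseong Yakdak, -0.29 in Yeonsan Ogye and -0.11 in Hyunin Black, and without WL 2 they were -1.19, -0.88 and -0.69. For the mean of the 4 native breeds it was -0.94 ± 0.29 (unadjusted p = 0.00556, adjusted p = 0.198). These comparisons share the 3 White Leghorn birds, so they are not separate evidence of a direction.

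Comparisons between native breeds set no White Leghorn level against another, although the White Leghorn birds still entered the shared estimate of the spread. STC2 in Hwangbong differed from Hyunin Black by -1.49 ± 0.36 (unadjusted p = 0.00111, adjusted p = 0.125) and from Yeonsan Ogye by -1.31 ± 0.36 (unadjusted p = 0.00299, adjusted p = 0.167). Neither passed over all features, where 0.371% and 0.317% did. The 3 Hw birds lay below every Bl and every Og bird, and groups did not overlap for 14.4% and 15.2% of features. The difference of Hoengseong Yakdak from Yeonsan Ogye was -0.31 ± 0.36 (adjusted p = 0.847), without overlap, as for 14.8% of features. Hoengseong Yakdak overlapped Hwangbong, because Hw 3 at 6.93 exceeded Ya 3 at 6.71. Without Hw 3, the Hwangbong bird nearest to the other breeds, all 3 comparisons of Hwangbong with a native breed passed. The adjusted p was then 0.0162 against Hyunin Black, 0.0291 against Yeonsan Ogye and 0.0409 for Hoengseong Yakdak against Hwangbong. The share of all features passing in that fit is not given here. Without Hw 1 the adjusted p was 0.344 against Hyunin Black and 0.363 against Yeonsan Ogye, and without Hw 2 it was 0.407 and 0.414. For Hoengseong Yakdak against Hwangbong it reached 0.522 among the fits with 1 array left out.

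IGF1, the hormone gene of the axis, had no called difference in any comparison. Its levels were 10.18, 9.69 and 9.60 in the Og birds, 10.23, 9.75 and 9.50 in the Bl birds, 10.24, 10.08 and 9.97 in the Hw birds, 10.12, 9.73 and 10.15 in the Ya birds, and 9.75, 10.60 and 10.28 in the WL birds. White Leghorn held both the highest bird of all, WL 2, and a bird below all 3 Hw birds, WL 1, and every native breed overlapped it. The breed means ran from 9.82 ± 0.31 in Yeonsan Ogye to 10.21 ± 0.43 in White Leghorn (SD, n = 3 each).

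The difference of IGF1 from White Leghorn was -0.39 ± 0.23 in Yeonsan Ogye, -0.38 ± 0.23 in Hyunin Black, -0.11 ± 0.23 in Hwangbong and -0.20 ± 0.23 in Hoengseong Yakdak (adjusted p = 0.683, 0.548, 0.901 and 0.785). For the mean of the native breeds it was -0.27 ± 0.18 (adjusted p = 0.597), with a 95% interval from -0.66 to 0.12. The intervals of single breeds reached from -0.88 at the lowest to 0.39 at the highest, with all 15 arrays in the model. These values rest on single WL birds: without WL 1 the difference was -0.61 in Yeonsan Ogye, -0.61 in Hyunin Black, -0.34 in Hwangbong, -0.43 in Hoengseong Yakdak and -0.50 for the native mean. Without WL 2 the same differences were -0.19, -0.18, 0.085, -0.0081 and -0.0742, and none passed in either fit. In these 5 comparisons 0.191%, 0.164%, 0.579%, 0.552% and 0.432% of all features passed.

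The features used for the receptor genes varied little among birds. IGF1R stood at 7.58, 7.85 and 7.73 in the Og birds, 7.83, 7.72 and 7.90 in the Bl birds, 7.75, 7.99 and 7.83 in the Hw birds, 7.86, 7.83 and 7.99 in the Ya birds, and 7.83, 7.85 and 7.85 in the WL birds. The largest difference from White Leghorn was -0.12 ± 0.10 in Yeonsan Ogye (adjusted p = 0.814), and every 95% interval against White Leghorn lay between -0.34 and 0.27. The pooled SD of IGF1R within breeds was 0.098, and 6.17% of all features had a smaller one.

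A second feature carried the IGF1R symbol at a lower level, with a mean of 5.94 over the 15 birds against 7.83 for the feature used. It had no called difference either (F = 0.30, adjusted p = 0.946), but it did not follow the first feature from bird to bird (Pearson r = 0.004, Spearman rho = 0.002, 15 birds, given as a description). In White Leghorn it ranged from 5.40 to 6.36, where the feature used ranged from 7.83 to 7.85. The pooled SD of the second feature within breeds was 0.25, against 0.098 for the feature used and a median of 0.19 over all features. Which part of the transcript each feature reads was not analysed here.

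IGF2R, which carries lysosomal enzymes, lay between 8.04 in WL 1 and 8.36 in Hw 2 over all birds. Its levels were 8.13, 8.23 and 8.32 in the Og birds, 8.26, 8.17 and 8.32 in the Bl birds, 8.23, 8.36 and 8.16 in the Hw birds, 8.24, 8.22 and 8.31 in the Ya birds, and 8.04, 8.23 and 8.27 in the WL birds. All breeds overlapped. The differences from White Leghorn were between 0.05 and 0.07 in the 4 native breeds, each ± 0.10, with adjusted p-values between 0.831 and 0.948. Its 95% intervals against White Leghorn reached from -0.17 to 0.28.

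IGFBP1, the binding protein that in mammals rises in fasting and is held down by insulin, varied mainly within breeds. It stood at 6.71, 6.08 and 7.05 in the Og birds, 6.55, 6.22 and 7.83 in the Bl birds, 6.53, 6.99 and 6.75 in the Hw birds, 5.83, 6.20 and 6.96 in the Ya birds, and 6.42, 6.62 and 6.51 in the WL birds. Bl 3 was the highest bird and Ya 1 the lowest, 2.00 apart, whereas the breed means lay only between 6.33 and 6.87. The pooled SD within breeds was 0.52, larger than that of 97.3% of features.

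The difference of IGFBP1 from White Leghorn was 0.09 ± 0.37 in Yeonsan Ogye, 0.35 ± 0.37 in Hyunin Black, 0.24 ± 0.37 in Hwangbong and -0.19 ± 0.37 in Hoengseong Yakdak (adjusted p between 0.765 and 0.976). Its intervals reached from -0.98 to 1.14, and those of Hyunin Black and Hwangbong held a 2-fold difference upward. Without Bl 3 the difference in Hyunin Black was -0.13, and without Ya 1 that in Hoengseong Yakdak was 0.06, so these directions rest on 1 bird each.

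**Figure D3:**
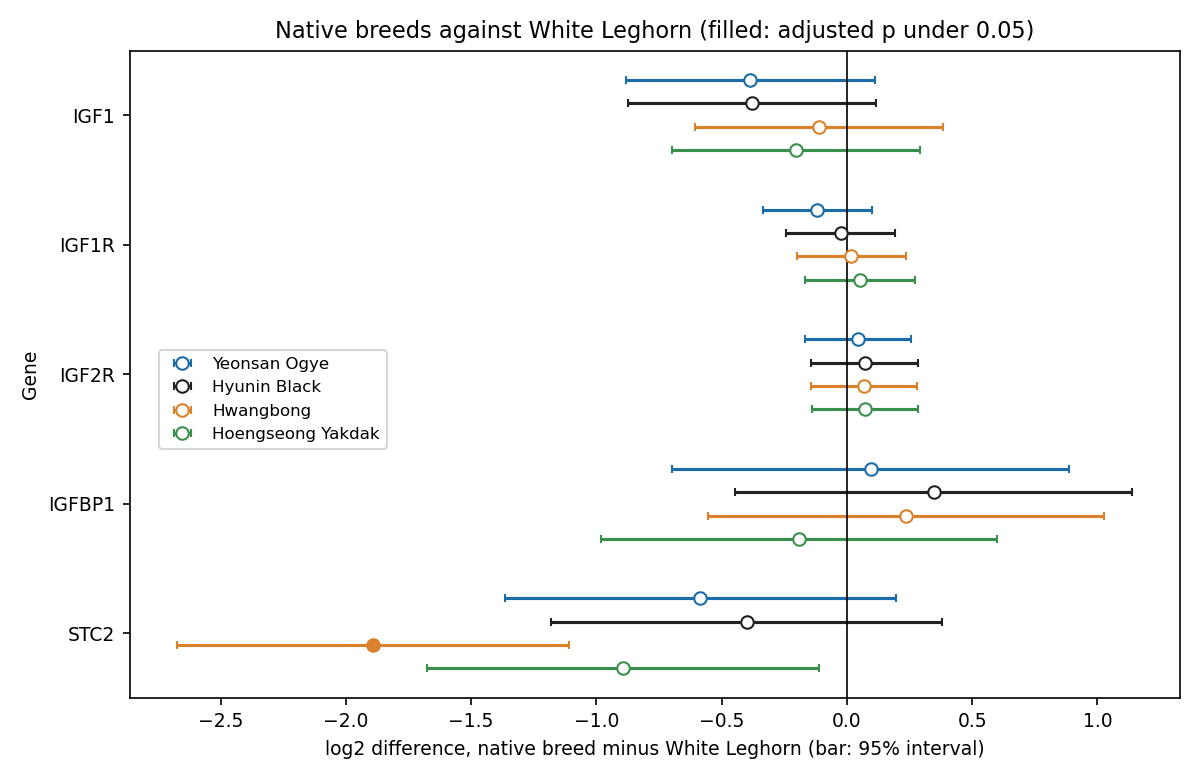
Log2 difference of each native breed from White Leghorn for the 5 genes, with 95% intervals from the limma model and filled symbols where the adjusted p was under 0.05. STC2 in Hwangbong, at -1.89, is the filled symbol, and the intervals of IGF1R and IGF2R are the narrowest.

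The 5 genes were compared as a group only by their counts. Against White Leghorn, 2 of 5 lay above 0 in Yeonsan Ogye, Hyunin Black and Hoengseong Yakdak and 3 of 5 in Hwangbong. Their median difference was -0.12 in Yeonsan Ogye, -0.03 in Hyunin Black, 0.02 in Hwangbong and -0.19 in Hoengseong Yakdak, beside medians of all features between -0.0124 and -0.00113. In the 6 comparisons between native breeds 0 of 5 genes passed, where the share of all features that passed lay between 0.0492% (Hyunin Black against Yeonsan Ogye) and 1.46% (Hoengseong Yakdak against Hwangbong), with 0.317% for Hoengseong Yakdak against Yeonsan Ogye and 0.295% against Hyunin Black.

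Whether the genes moved together from bird to bird was asked for their 10 pairs over the 15 birds. IGF1R and IGF2R had the highest correlation (Pearson r = 0.52, permutation p = 0.0499, adjusted p = 0.38; Spearman rho = 0.57, permutation p = 0.03, adjusted p = 0.30). It was 0.34 without the 2 birds farthest from the IGF1R median and 0.63 after the breed means were taken out. These values hold for the IGF1R feature used, with which the second IGF1R feature correlated at r = 0.004. IGF2R and IGFBP1 followed (Pearson r = 0.47, permutation p = 0.0759, adjusted p = 0.38; Spearman rho = 0.50, permutation p = 0.06, adjusted p = 0.30). IGF1 and STC2 had r = -0.23 and IGFBP1 and STC2 r = -0.08, and no pair passed after adjustment over the 10 pairs. The permutations exchanged all 15 birds regardless of breed, so their p-values do not measure association within breeds, which was not tested.

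The genes with the most similar pattern over the 15 birds were found for the 3 members with the largest F, among 11193 other named genes. For STC2 the highest correlations were with MCOLN3, a lysosomal cation channel (Pearson r = 0.89, 0.73 within breeds), RAD51D, a DNA repair protein (r = 0.85), and CLIC2 (r = 0.84). The most opposite were ATF6B, an endoplasmic reticulum stress factor (r = -0.85), and TMPRSS12 (r = -0.85). By rank these correlations were smaller in size. Spearman rho was 0.74 for MCOLN3, 0.55 for RAD51D, 0.74 for CLIC2, -0.76 for ATF6B and -0.66 for TMPRSS12. TMPRSS12 rose by 0.97 in Hwangbong against White Leghorn (7.07 and 6.10, adjusted p = 0.0218), where 0.579% of all features passed. MCOLN3, RAD51D, CLIC2 and ATF6B did not pass there (adjusted p = 0.0978, 0.37, 0.244 and 0.19). All were chosen for following or opposing STC2 over these same birds, so their differences are not separate evidence. MCOLN3 averaged 2.62 in Hwangbong and 3.24 in White Leghorn, a low level that was not shown to be above background. The correlations are descriptions of the highest values out of many genes, over birds of which 3 each share a breed.

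For IGF1 the most similar genes were SLC5A10 (r = 0.83), IRX2 (r = 0.80) and CAMTA1 (r = 0.79), and the most opposite PES1 and HDHD2 (r = -0.82 each). The values for IGF1R were 0.87 with AGFG1, 0.83 with OSBPL8 and 0.83 with CREG2, and -0.89 with ACVR1B and -0.83 with FYTTD1L. They hold for the IGF1R feature used, which the second IGF1R feature did not follow. In the order named, Spearman rho was 0.65, 0.85, 0.81, -0.85 and -0.80 for IGF1. For IGF1R it was 0.70, 0.70, 0.70, -0.86 and -0.89. After the breed means were taken out, the Pearson correlations were 0.74 to 0.83 in size for IGF1 and 0.81 to 0.91 for IGF1R, and those of STC2 were 0.64 to 0.79.

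The wider pathway was read from 5 gene lists with 90 genes, of which 64 were measured. None of the 64 passed in any of the 11 comparisons, where 0.0492% to 1.46% of all features did, or in the test among 5 breeds, where 1.6% did. All comparisons with White Leghorn use the same 3 WL birds, so a direction that the native breeds have in common carries no separate weight. The lowest adjusted p among the comparisons was that of SOCS2 in Hoengseong Yakdak (0.0712). For each list the 2 genes with the largest F are given, because no member passed.

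Growth hormone signalling was covered by 16 of 21 genes. SOCS2, which growth hormone induces in liver and which damps its signal, lay lower than in White Leghorn by mean in all 4 native breeds. It stood at 7.35, 7.36 and 8.23 in the Ya birds, against 8.40, 9.25 and 8.84 in the WL birds, a difference of -1.18 ± 0.27 (unadjusted p = 0.0007, adjusted p = 0.0712). The 2 groups did not overlap, as was the case for 17.7% of features. In Yeonsan Ogye and Hyunin Black the birds also all lay below the WL birds, as groups did not overlap for 13% and 16.3% of features. In Yeonsan Ogye the difference was -0.86 ± 0.27 (adjusted p = 0.328), in Hyunin Black -0.59 ± 0.27 (adjusted p = 0.417) and in Hwangbong -0.44 ± 0.27 (adjusted p = 0.546).

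GHRH, the hypothalamic releasing hormone, had the second largest F (4.21) at a level of 4.70 to 5.25, which was not shown to be above background. The kinase JAK2 averaged 7.72 ± 0.05 in Hwangbong and 7.42 ± 0.12 in White Leghorn (SD, n = 3 each), a difference of 0.31 ± 0.12 (adjusted p = 0.286). STAT5A, which carries the signal to the nucleus, had breed means between 8.64 and 8.77. JAK2 and STAT5A were picked for their role after values had been seen. The list's median difference from White Leghorn was -0.16 in Yeonsan Ogye, 0.04 in Hyunin Black, 0.0016 in Hwangbong and -0.05 in Hoengseong Yakdak.

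IGF ligands, carriers and proteases were covered by 11 of 14 genes. PAPPA, the protease that STC2 restrains in mammals, was lowest in Hyunin Black at 4.97 ± 0.14 against 5.51 ± 0.05 in White Leghorn (SD, n = 3 each), a difference of -0.54 ± 0.14 (adjusted p = 0.151). In Hwangbong, where STC2 was lowest, PAPPA stood at 5.25 ± 0.09, a difference of -0.27 ± 0.14 (adjusted p = 0.462). IGF2BP3, an RNA-binding protein of IGF2 messenger RNA, stood at 6.50, 6.20 and 6.01 in the Ya birds, against 5.28, 5.17 and 5.58 in the WL birds (0.89 ± 0.24, adjusted p = 0.119). Neither gene passed. PAPPA in Hyunin Black and in Hwangbong, and IGF2BP3 in Hoengseong Yakdak, did not overlap White Leghorn. Groups did not overlap for 16.3%, 18.7% and 17.7% of features in these comparisons. Over all birds PAPPA lay between 4.81 and 5.77 and IGF2BP3 between 4.98 and 6.50. These low levels were not shown to be above background, so the size of both genes' differences is uncertain.

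Other carriers and the second ligand, picked for their role after values had been seen, had no called difference. IGF2 had breed means between 8.73 and 9.26, with a difference from White Leghorn of -0.41 ± 0.18 in Yeonsan Ogye (adjusted p = 0.512), carried by Og 3 at 8.30 against 8.96 and 8.94 in the other Og birds. IGFALS, which joins the large circulating complex of IGF with its binding proteins, had breed means between 10.93 and 11.25, with WL 1 the lowest bird at 10.57. IGFBP3, the neighbour of IGFBP1 among protein-coding genes of the RefSeq annotation, had breed means between 5.84 and 6.22, and its 3 Hw birds lay below the 3 WL birds (-0.21 ± 0.14, adjusted p = 0.564), where 18.7% of features had groups that did not overlap.

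Insulin and IGF signalling inside the cell was covered by 18 of 30 genes. In Yeonsan Ogye 15 of 18 lay above White Leghorn, in Hyunin Black 14, in Hwangbong 15 and in Hoengseong Yakdak 12, but 0 rose and 0 fell. Of all features, 52%, 50.2%, 52.4% and 51% lay below 0 in these 4 comparisons, which share the WL birds. The median difference was 0.11 in Yeonsan Ogye, 0.07 in Hyunin Black, 0.09 in Hwangbong and 0.09 in Hoengseong Yakdak. GRB14, an adaptor that inhibits the insulin receptor, was at 7.55 ± 0.18 in Hoengseong Yakdak and 8.07 ± 0.17 in Yeonsan Ogye (SD, n = 3 each), a difference of -0.52 ± 0.13 (adjusted p = 0.114). IRS2, a docking protein of the insulin and IGF-I receptors, differed from White Leghorn by 0.63 ± 0.24 in Yeonsan Ogye (adjusted p = 0.427).

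**Figure D4:**
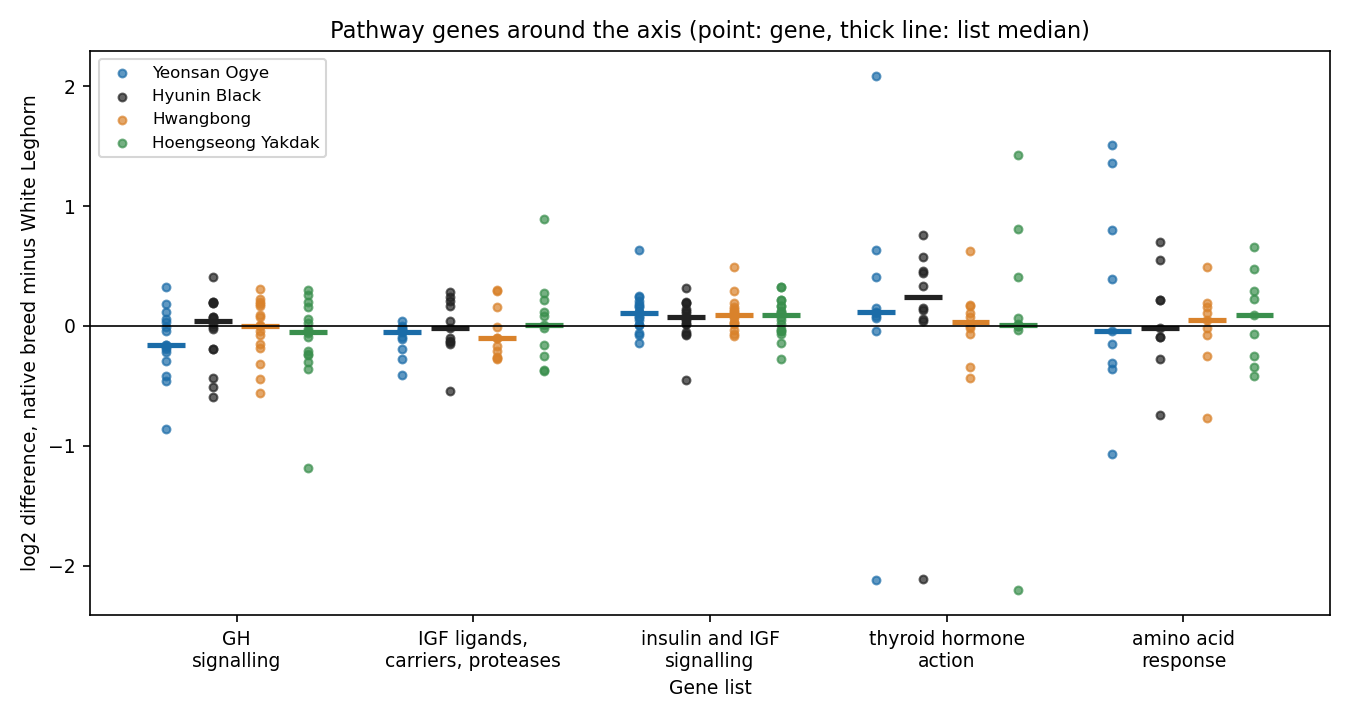
Log2 difference of each native breed from White Leghorn for the 64 measured genes of the 5 pathway lists, each point a gene and each thick line a list median. List medians lie between -0.16 and 0.24, and the widest points, in the thyroid list, are DIO3 at -2.20 and DIO2 at 2.08.

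Thyroid hormone action, which acts on growth beside this axis, was covered by 10 of 11 genes. THRB, a thyroid hormone receptor, was at 7.05 ± 0.06 in Hyunin Black and 6.61 ± 0.23 in White Leghorn (SD, n = 3 each), a difference of 0.44 ± 0.13 (adjusted p = 0.207). DIO1, a liver deiodinase that makes active hormone, was between 10.07 and 10.35 in all Og, Bl and Ya birds, against 9.73, 9.75 and 9.77 in the WL birds. Its difference was 0.40 ± 0.14 in Yeonsan Ogye, 0.46 ± 0.14 in Hyunin Black and 0.41 ± 0.14 in Hoengseong Yakdak, and none of these passed (adjusted p = 0.386, 0.221 and 0.229). Groups did not overlap for 13%, 16.3% and 17.7% of features in these comparisons, which share the 3 WL birds. In Hwangbong DIO1 was at 9.43, 9.96 and 10.09, which overlapped White Leghorn.

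The amino acid response was included because STC2 is a known target of its factor ATF4 in mammals, and 9 of 14 genes were measured. PSAT1, an enzyme of serine synthesis, averaged 11.39 ± 0.51 in Hwangbong and 12.16 ± 0.21 in White Leghorn (SD, n = 3 each), a difference of -0.76 ± 0.26 (adjusted p = 0.22). In Yeonsan Ogye it differed by -1.06 ± 0.26 (adjusted p = 0.165). EIF2AK4, a kinase that senses lack of amino acids, was lowest in Hoengseong Yakdak at 8.09 ± 0.05, against 8.43 ± 0.13 in White Leghorn (-0.34 ± 0.11, adjusted p = 0.21). In Hwangbong 5 of the 9 genes lay above White Leghorn and 4 below, with a median of 0.05.

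**Figure D5:**
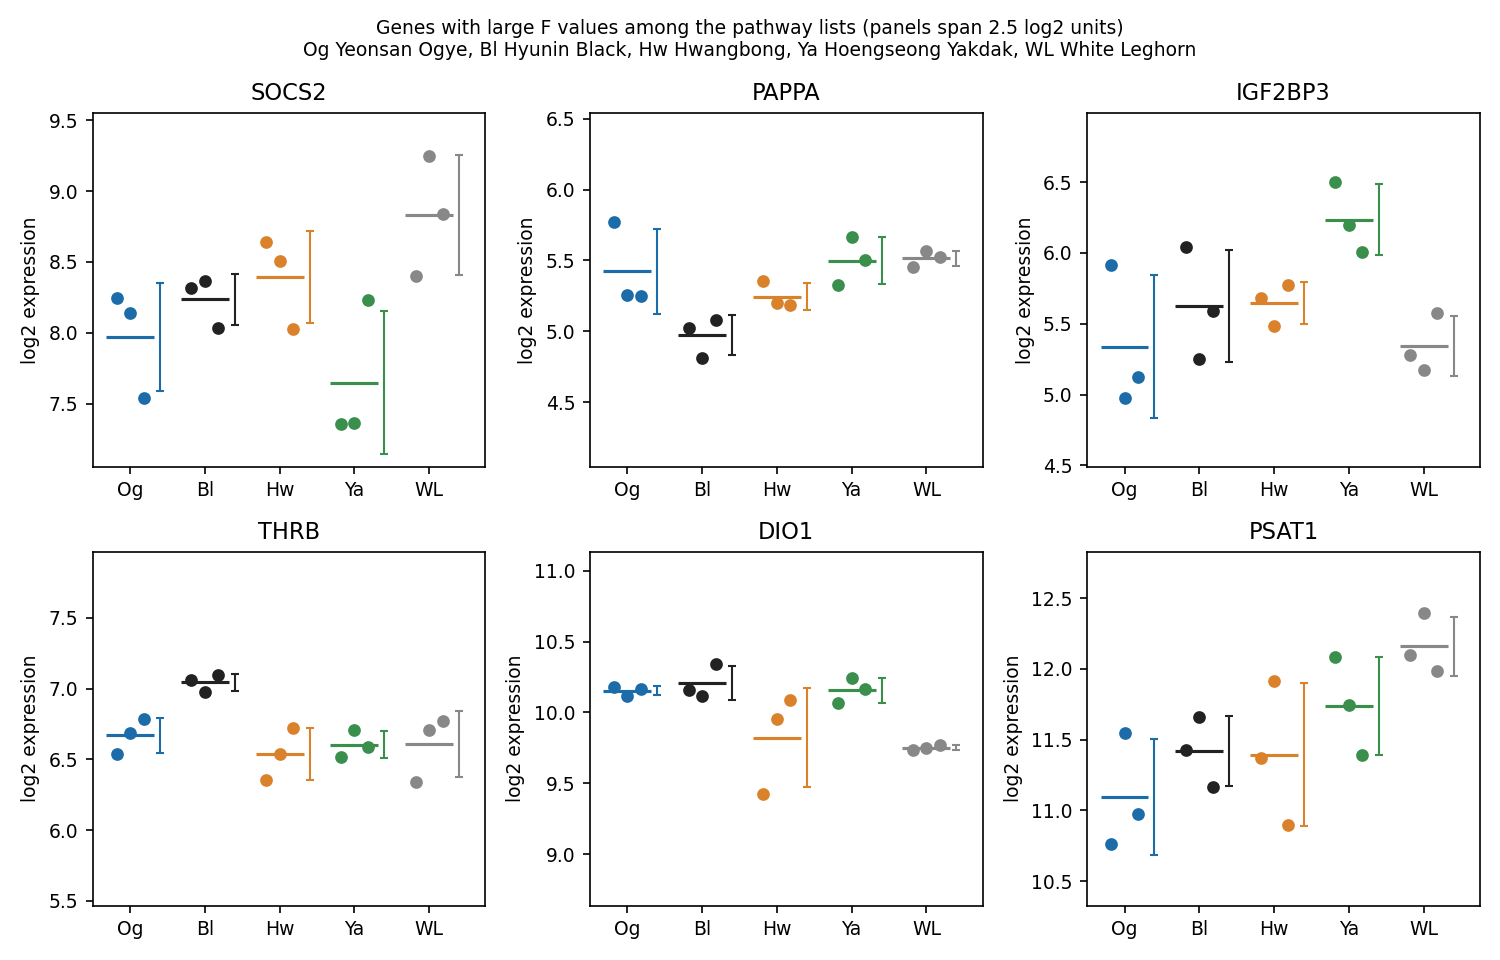
Log2 expression of 6 of the genes named from the pathway lists, with birds 1 to 3 as points, the breed mean as a line and the SD (n = 3) as a bar, on panels of equal height. The SOCS2 levels of Ya 1 and Ya 2 (7.35 and 7.36) are the lowest, and DIO1 in the WL birds lies below all Og, Bl and Ya birds.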

How the data were processed

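Liver RNA of 15 birds was labelled as biotinylated single-stranded cDNA and hybridised to chicken gene arrays, per the labels' protocols. The submitters' processing notes name RMA and version 1.3.1 of Affymetrix Expression Console, and the deposited values are log2 expression. Whether they summarise genes or transcripts is not given in the sources used here, and detection calls were not used. Symbols came from the platform annotation (1 symbol for 12300 of 18308 features, several for 256), and gene neighbours from the RefSeq annotation of assembly GRCg7b, with no coordinates. The platform annotation can be old.

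One linear model of all arrays was fitted by lmFit and eBayes of limma 3.58.1, running under R 4.3.3 (10 residual degrees of freedom plus 3.89 from moderation). Tests were two-sided, with Benjamini-Hochberg adjustment over all features of a comparison and a threshold of 0.05. Precision is limited by the small number of arrays: with 3 birds a group, the smallest p of an exact permutation test is 0.1. Correlations between members used 100000 permutations. Replicates are described as biological in the labels.

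The members and the gene lists were chosen with earlier results of these data known. Named are all measured members, pathway genes that passed or else the 2 of largest F per list, and the 3 most similar and 2 most opposite genes for the 3 members of largest F. The text says where another gene was picked. Alternatives were variance moderation, array weights, normalisation, a filter on low features, feature choice, a replicate block, pairs of breeds alone and left-out arrays.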

Additional observations from a re-analysis of the deposited data

How the results depend on the processing

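Over 40 results, 923 of 958 values under the alternatives were classed as unchanged. Differences were classed by direction and side of the threshold, F values by side alone, and counts of genes passing by size. Many values could hardly change: leaving out a bird of an uninvolved breed keeps a difference as it is. Adjusted p-values of most results also lay far above the threshold, so this count says little about how firm a result is. STC2 in Hwangbong against White Leghorn kept its direction in every alternative, with adjusted p between 0.00549 and 0.162. The call was lost in 7 of 24 alternatives. These include the fits without Hw 1, Hw 2, WL 1, WL 3 or Bl 3, and the 6 arrays of the 2 breeds alone (-1.89, 0 genes called). The last, an alternative chosen after seeing the data, left out WL 1 and Og 1 together (-1.60, 0 genes called). With 1 array left out this STC2 difference was between -2.37 and -1.59. The number of calls against White Leghorn was then 0 to 1, in the test among breeds 0 to 1 and between native breeds 0 to 3. Differences near 0 changed sign. With its dimmer feature IGF1R was 0.12 in Hyunin Black and 0.0357 in the native mean, and after a further quantile normalisation -0.0136 in Hwangbong. IGF2R in Hwangbong was -0.0022 without WL 1 and Og 1. With 1 array left out, IGF1 in Hwangbong was between -0.34 and 0.0850, IGF1R between -0.0651 and 0.0233 in Hyunin Black and -0.0473 and 0.0701 in Hwangbong, IGF2R between -0.0022 and 0.11 in Hwangbong, -0.0246 and 0.0941 in Yeonsan Ogye and -0.0063 and 0.11 in the native mean. IGFBP1 was between -0.13 and 0.67 in Hyunin Black, -0.12 and 0.36 in Yeonsan Ogye and -0.51 and 0.0566 in Hoengseong Yakdak, and STC2 in Hyunin Black against Yeonsan Ogye between -0.0297 and 0.42. The cause was not tested beyond the array or feature named. Same-numbered birds deviated together at r over 0.1 in 8 of 30 pairs (-0.09 to 0.24). Between Og and WL birds the values were 0.24, 0.095 and 0.21 for numbers 1, 2 and 3, and their cause was not tested. The labels call the birds biological replicates only, so the numbers were not taken to pair birds. A replicate block left STC2 in Hwangbong at -1.89 (adjusted p = 0.0433) with 113 features called against 106. Low levels may lie at array background, which was not measured.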

Other observations

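DIO2, CHAC1 and DIO3 had the widest ranges over the 15 birds among the 64 pathway genes. DIO3 is the deiodinase that inactivates thyroid hormone, and growth hormone is known to lower it in chicken liver. DIO3 was at 3.54, 6.83 and 6.84 in Hw 1, Hw 2 and Hw 3 and at 8.15, 5.30 and 5.06 in WL 1, WL 2 and WL 3. In the Og, Bl and Ya birds it lay between 3.53 and 4.40, below every WL bird and below Hw 2 and Hw 3. Groups did not overlap for 13% of all features in Yeonsan Ogye, 16.3% in Hyunin Black and 17.7% in Hoengseong Yakdak, against the same 3 WL birds. The difference from White Leghorn was -2.12 ± 0.82 in Yeonsan Ogye, -2.11 ± 0.82 in Hyunin Black and -2.20 ± 0.82 in Hoengseong Yakdak, and none passed (adjusted p = 0.437, 0.329 and 0.266). Levels as low as those of the Og, Bl and Ya birds were not shown to be above background.

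DIO2, a deiodinase that activates thyroid hormone, ranged from 6.23 to 11.37 over the 15 birds, with an SD of up to 1.92 within a breed (Hoengseong Yakdak, n = 3), and F = 1.04 (adjusted p = 0.712). CHAC1, a glutathione-degrading enzyme of the amino acid response, ranged from 5.76 to 10.64 with F = 0.84. THRSP, a gene of fat synthesis that responds to thyroid hormone, was lowest in WL 1 at 10.78, against 12.02 and 12.40 in the other WL birds. WL 1 was also the bird with the highest STC2 and DIO3 and the lowest IGFALS and IGF2R. These genes were picked after their values were seen.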
